A study of Mus musculus with 6 samples.

Results

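Glycolysis and the hypoxia response were followed through 38 genes chosen by name, in mouse macrophage-like RAW 264.7 cells stimulated with lipopolysaccharide (LPS, a bacterial endotoxin) with or without 15(S)-hydroxyeicosatetraenoic acid (15-HETE, an oxidation product of arachidonic acid). A gene was measured where a probe of the mouse genome survey array carried its symbol and no other, and it was read at the brightest such probe. By this rule 28 of the 38 genes were measured, out of 13840 genes with such a probe on the array. These were 16 of 22 glucose transporters and glycolytic enzymes and 12 of 16 genes of the hypoxia-inducible factor (HIF) pathway. The hexokinase Hk3, the isomerase Gpi1, the phosphofructokinase Pfkl, Pfkfb1, the enolase Eno1, the pyruvate kinase Pkm, the HIF subunit Hif1a, Ankrd37, P4ha1 and Mxi1 had no such probe and were not analysed here.

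The LPS group held 3 samples given 1 μg/mL LPS, and the 15-HETE + LPS group held 3 samples given 40 μM 15(S)-HETE directly before the same LPS. RNA was taken at 24 h, and each sample pooled 6 wells of the same cell line. No unstimulated cells and no cells given 15-HETE alone were analysed here, and the labels name no vehicle for the LPS group, so each difference compares 15-HETE with its absence under LPS. The replicates were separate pools of wells of 1 line, so the spread between them is that of cultures, not of animals.

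Glycolysis turns glucose into pyruvate in the cytosol. Glucose enters through SLC2A carriers, is trapped by hexokinase and is committed at phosphofructokinase, which is stimulated by the fructose-2,6-bisphosphate that PFKFB enzymes make and remove. HIF is a pair of an α subunit (Hif1a or Epas1) and Arnt. In normal oxygen the EGLN hydroxylases mark the α subunit for destruction by VHL, and when they are inactive HIF binds promoters and raises glucose carriers, glycolytic enzymes and other genes such as Vegfa. Activated macrophages are known for a high rate of glycolysis, and LPS can stabilise HIF-1α without a lack of oxygen.

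The arrays gave 33012 linear, quantile-normalised intensities per sample, with a median of 837 in every sample. Of 8 measured macrophage markers all 8 lay above the median brightness of the array, Lyz2 and Cd14 among them, and 6 above the third quartile. Of the markers of other cell types, 4 of 6 fibroblast, 2 of 5 epithelial, 1 of 5 lymphocyte, 3 of 4 granulocyte and 2 of 3 erythroid genes lay above the median, and 1 (fibroblast) lay above the third quartile. The summed intensity of the macrophage markers was 2264733 to 3038322 in the LPS samples and 3232981 to 3429100 in the treated ones, that of the fibroblast markers 22049 to 27746 and 13121 to 15431, and that of the granulocyte markers 4488 to 5738 and 2241 to 3068. The sums of the epithelial markers were 7254 to 9092 and 4207 to 7297, and overlapped. So did those of the lymphocyte markers (3148 to 3391 and 2610 to 5758) and erythroid markers (3661 to 5099 and 4440 to 5161). A sum leans on its brightest gene, Lyz2 for the macrophage and Dcn for the fibroblast markers. All samples were cultures of 1 cell line, so these markers check the label only. Why their intensity differed between the groups, and their part in the results, was not tested. LPS replicate 1 stood apart from the other LPS samples. It was the LPS sample farthest from the group median for 53.5% of genes, and for 75.7% of genes above the third quartile of brightness, against 23.6% and 11.6% for LPS replicate 2. The titles of the treated samples carry DWW tags and those of the LPS samples carry none, and the meaning of the tags is not stated. The labels do not say which arrays were processed together, so array sets and treatment cannot be told apart.

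The main test was limma on log2 intensity. A probe was called where its p, adjusted by the Benjamini-Hochberg method over the whole array, was under 0.05. This called 0.509% of probes higher and 0.442% lower after 15-HETE. Among the brightest probes of the 13840 genes these shares were 0.759% and 0.368%. A second fit let the prior variance follow the intensity (called here the intensity trend). It called 5.85% of genes higher and 5.33% lower. Log2 differences are 15-HETE + LPS minus LPS throughout. The smallest two-sided p that an exact permutation test of 3 samples against 3 can give is 0.1.

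Of the 28 members limma called Ddit4 (1 gene) higher and 0 lower. Before adjustment, 5 members on the higher and 4 on the lower side had a p under 0.05, where 10.7% and 10.6% of all genes did. With the intensity trend 4 were called higher (Ddit4, Egln3, Slc2a1 and Pfkfb3) and 2 lower (Hk2 and Eno2), beside 5.85% and 5.33% of all genes. Of the members 14 had a positive and 14 a negative log2 difference, and their median was 0.00433, beside 0.02 over all genes. Treated samples lay wholly above the LPS samples for 7 members and wholly below for 5 of the 28, where 17.5% and 17.7% of all genes did so.

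**Figure D1:**
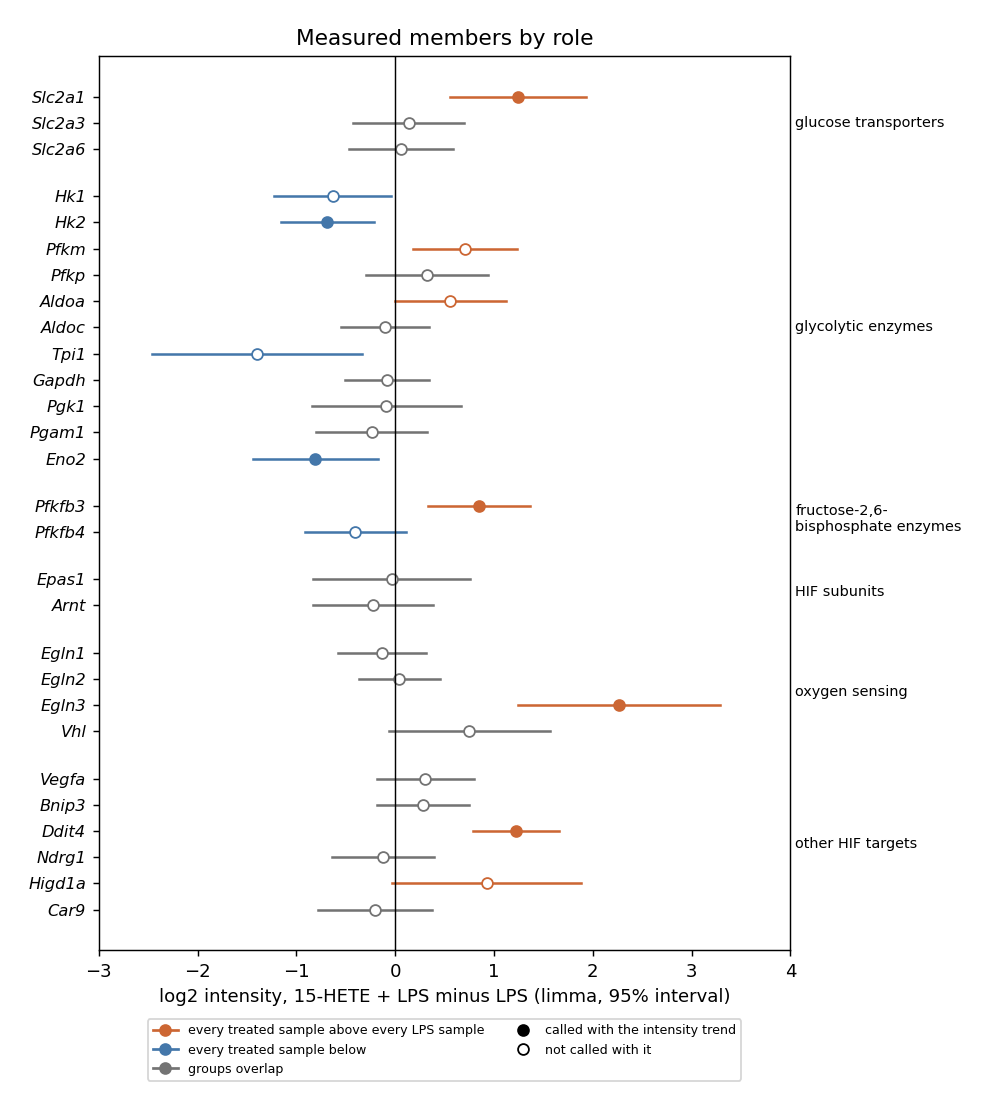
Log2 difference in intensity (15-HETE + LPS minus LPS, horizontal axis) of the 28 measured members, grouped by role, with the 95% interval from limma as a line. Filled points were called with the intensity trend; Egln3, at 2.26, lies farthest to the right and Tpi1, at -1.40, farthest to the left.

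The promoters of the 6 members called with the intensity trend are shown because HIF acts through short elements near gene starts. Each is the stretch of 250 bases before a RefSeq transcription start in build GRCm38.p6, written 5′ to 3′ on the strand of the gene, with capitals marking ACGTG or GCGTG, the core letters of the hypoxia response element, read on both strands (CACGT and CACGC are the same letters on the other strand). Ddit4 lies on the minus strand at chr10:59951771-59952020, Egln3 on the minus strand at chr12:54203875-54204124 and Slc2a1 on the plus strand at chr4:119108495-119108744. The table lists a pair of starts for Pfkfb3, both on the minus strand, at chr2:11553930-11554179 and at chr2:11502091-11502340. Hk2 lies on the minus strand at chr6:82774455-82774704 and Eno2 on the minus strand at chr6:124769674-124769923.
Ddit4: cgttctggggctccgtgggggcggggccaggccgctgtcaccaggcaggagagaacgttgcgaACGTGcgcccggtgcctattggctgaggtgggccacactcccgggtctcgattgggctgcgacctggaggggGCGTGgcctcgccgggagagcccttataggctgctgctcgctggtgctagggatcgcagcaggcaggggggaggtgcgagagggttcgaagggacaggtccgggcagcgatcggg
Egln3: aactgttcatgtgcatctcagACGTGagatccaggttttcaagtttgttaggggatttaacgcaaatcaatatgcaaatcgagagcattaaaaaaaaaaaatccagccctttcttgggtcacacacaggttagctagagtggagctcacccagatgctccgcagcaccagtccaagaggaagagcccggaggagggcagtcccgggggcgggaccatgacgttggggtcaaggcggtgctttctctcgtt
Slc2a1: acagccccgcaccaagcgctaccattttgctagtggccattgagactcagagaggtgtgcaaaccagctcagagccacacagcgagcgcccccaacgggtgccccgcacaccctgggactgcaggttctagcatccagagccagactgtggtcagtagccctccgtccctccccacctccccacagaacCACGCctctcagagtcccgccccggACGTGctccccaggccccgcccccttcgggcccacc
Pfkfb3, first start: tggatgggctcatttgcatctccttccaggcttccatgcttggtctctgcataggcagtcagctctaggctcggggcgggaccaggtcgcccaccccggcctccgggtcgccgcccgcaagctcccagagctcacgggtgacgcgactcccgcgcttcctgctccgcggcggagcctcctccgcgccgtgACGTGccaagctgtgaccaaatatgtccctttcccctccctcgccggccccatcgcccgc
Pfkfb3, second start: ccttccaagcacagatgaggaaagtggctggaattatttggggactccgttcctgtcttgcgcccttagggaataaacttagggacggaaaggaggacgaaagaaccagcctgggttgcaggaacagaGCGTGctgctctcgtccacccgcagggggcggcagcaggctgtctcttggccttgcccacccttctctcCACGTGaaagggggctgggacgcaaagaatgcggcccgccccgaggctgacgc
Hk2: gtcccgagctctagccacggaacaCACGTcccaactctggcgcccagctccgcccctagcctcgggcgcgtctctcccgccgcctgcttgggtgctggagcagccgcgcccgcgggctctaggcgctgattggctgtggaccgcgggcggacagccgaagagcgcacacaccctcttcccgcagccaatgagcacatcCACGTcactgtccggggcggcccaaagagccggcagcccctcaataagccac
Eno2: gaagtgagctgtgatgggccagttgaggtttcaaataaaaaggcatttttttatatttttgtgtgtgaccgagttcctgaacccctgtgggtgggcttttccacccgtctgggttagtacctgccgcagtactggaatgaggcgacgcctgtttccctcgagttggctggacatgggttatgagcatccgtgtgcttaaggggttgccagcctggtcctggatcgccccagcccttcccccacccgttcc

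The core letters stood 187 and 115 bases before the start of Ddit4, 229 before that of Egln3 and 61 and 36 before that of Slc2a1. In Pfkfb3 they stood 60 bases before the first start, and 122, 53 and 52 before the second, where the last pair overlap in the palindrome CACGTG, which is also the letters of an E-box. Hk2, which was lower, held them 226 and 52 bases before its start, and Eno2 held 0 in this window. Promoters with the core letters belonged to members on both sides of 0. RefSeq promoters were matched for 25 of the 28 measured members, all but Slc2a3, Epas1 and Ndrg1. Of these 25 genes 22 (88%) held the core letters in a promoter, so finding them on both sides of 0 says nothing of direction. Of their 35 promoters 28 (80.0%) held the core letters, against 38.6% of 32851 promoters of all genes and 44.0% of those of protein-coding genes. The share was 78.3% in the promoters of transporters and enzymes and 83.3% in those of HIF-pathway genes. ACGTG alone was in 48.6% of the members' promoters and 16.6% of all. HIF targets were among the genes chosen by name, so the list was not blind to such elements. Some windows of Aldoa and of Pfkm overlap, so a site there can be counted more than once. A match of these letters describes the sequence and is no sign of binding.

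Ddit4, which restrains mTORC1 and is induced by hypoxia and other stresses, was the member with the lowest p. Its intensity was 4123, 3713 and 4319 in the LPS samples and 9568, 10264 and 8548 in the treated samples. Every treated sample was thus above every LPS sample, with means of 4051 ± 309 and 9460 ± 863 (SD, n = 3). Ddit4 rose 2.33-fold (log2 difference 1.22 with a standard error of 0.18; limma, adjusted p = 0.0498). The call sat close to the threshold. The adjusted p was 0.00218 with the intensity trend, 0.0563 with a prior robust to outlying variances, 0.0521 when probes of a gene were averaged and 0.207 with the replicate number as a block. With any 1 sample left out the log2 difference ran from 1.16 to 1.29. Limma then gave Ddit4 an adjusted p of 0.0733 to 0.194 and called 0 probes on the whole array, whereas the intensity trend called Ddit4 in all 6 such fits.

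Egln3, the HIF prolyl hydroxylase that HIF itself induces in a feedback loop, had the largest difference of the members. It gave 346, 275 and 129 in the LPS samples and 834, 1449 and 1124 in the treated samples. The groups did not overlap, but the probe was dim, with all LPS values below the median of the array and LPS replicates 2 and 3 below its first quartile of 344. The log2 difference was 2.26 (standard error 0.42, 95% interval 1.24 to 3.29), the adjusted p was 0.0677 with limma and 0.0212 with the intensity trend. Without single samples the intensity trend kept the call in 2 of 6 fits, losing it without LPS replicates 2 or 3 and without treated replicates 2 or 3 (adjusted p up to 0.0787). The paralogues Egln1 and Egln2, which carry most hydroxylation in normal oxygen, had log2 differences of -0.13 (95% interval -0.58 to 0.31) and 0.04 (-0.36 to 0.45). The groups overlapped for both genes.

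Vhl, which brings hydroxylated HIF to a ubiquitin ligase, showed how much LPS replicate 1 weighed on these genes. Its intensity was 2807, 1302 and 1354 in the LPS samples and 2920, 3102 and 2605 in the treated ones. LPS replicate 1 lay among the treated samples, whereas the other LPS samples were far below them. With all samples the log2 difference was 0.75, with an adjusted p of 0.284 from limma and 0.195 with the intensity trend. When LPS replicate 1 was dropped it was 1.11, and the adjusted p with the intensity trend was 0.0129. The HIF subunits that were measured had log2 differences near 0. Arnt, the shared partner, had -0.23 (95% interval -0.84 to 0.38), or 0.01 without LPS replicate 1, and Epas1, the α subunit of HIF-2, had -0.03 (-0.83 to 0.76).

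Vegfa, the main growth factor for blood vessels, had 29929, 23603 and 23493 in the LPS samples and 28366, 35941 and 30701 in the treated ones. Treated replicate 1 lay below LPS replicate 1, so the groups overlapped. The log2 difference was 0.31 (95% interval -0.18 to 0.79, adjusted p = 0.449), and a second, dimmer Vegfa probe gave 0.48 (adjusted p = 0.234) with no overlap. Bnip3, a mitophagy receptor, had 0.28, and 0.06 at its other probe. Higd1a, a hypoxia-induced protein of the mitochondrial inner membrane, had 41450, 99058 and 110185 in the LPS samples and 157524, 144790 and 136332 in the treated samples. Here LPS replicate 1 was the low sample, and the log2 difference of 0.93 became 0.48 without it. Under the intensity trend its adjusted p was 0.103 with all samples and 0.00222 without this one. The stress-induced gene Ndrg1 had -0.12, which turned to 0.04 without LPS replicate 1, and the carbonic anhydrase Car9 had -0.20. The groups overlapped for both.

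**Figure D2:**
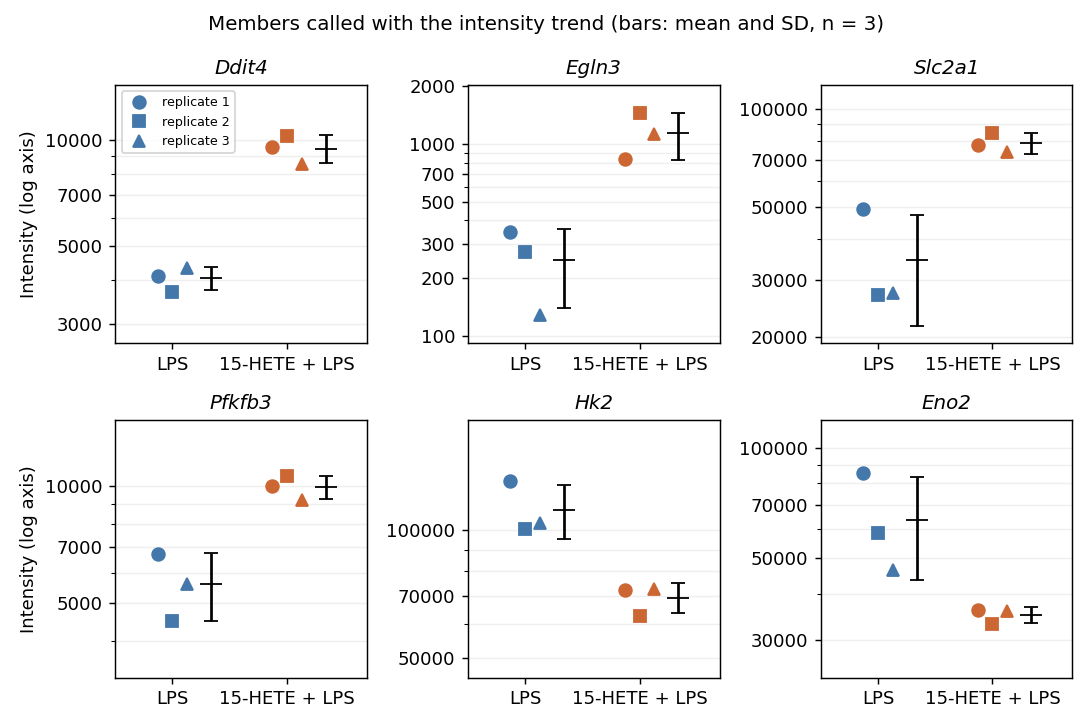
Intensity (log axis) in every sample of the 6 members called with the intensity trend; circles, squares and triangles are replicates 1, 2 and 3, and the bars beside them are the mean and SD of each group. The groups do not overlap in any panel, and LPS replicate 1 is the highest LPS sample in every panel but that of Ddit4.

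Slc2a1, the glucose transporter GLUT1 and a classic HIF target, gave 49417, 26856 and 27343 in the LPS samples and 77364, 84641 and 73720 in the treated samples. Even LPS replicate 1, the highest of its group, lay below every treated sample. The log2 difference was 1.24 (standard error 0.29, 95% interval 0.55 to 1.94), with an adjusted p of 0.0960 from limma and 0.00871 with the intensity trend. The latter call held with each of the 6 samples left out (adjusted p up to 0.0493). The other transporters did not share this. The high-affinity neuronal carrier Slc2a3 had 0.14 and Slc2a6, a carrier of lysosomal membranes in macrophages, 0.06, with overlapping groups. Without LPS replicate 1 the log2 difference of Slc2a6 was 0.24 and passed with the intensity trend.

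Hexokinase, the first step, lay on the other side of 0. Hk2, the inducible hexokinase of activated cells, gave 130754, 100674 and 104388 in the LPS samples and 72359, 62719 and 72817 after 15-HETE. All treated samples were lower, with means of 111939 ± 16400 and 69299 ± 5703 (SD, n = 3). The log2 difference was -0.69 (standard error 0.19, 95% interval -1.16 to -0.22), and the adjusted p was 0.135 with limma and 0.0156 with the intensity trend. The latter call was lost when any 1 of the treated samples was left out (adjusted p up to 0.0861). Hk1, the hexokinase of most tissues, had -0.63 and likewise no overlap between the groups (adjusted p = 0.230, or 0.0623 with the intensity trend).

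The enzymes that set the rate of phosphofructokinase differed from each other. Pfkfb3, the kinase-dominant maker of fructose-2,6-bisphosphate, gave 6717, 4503 and 5613 in the LPS samples and 10048, 10614 and 9249 in the treated samples. All treated samples were higher, and the log2 difference was 0.85 (standard error 0.21, adjusted p = 0.112 with limma and 0.0173 with the intensity trend). The call with the intensity trend held in 1 of 6 fits with a sample left out, that without LPS replicate 1. Pfkfb4, its paralogue, had -0.40 (adjusted p = 0.347), with every treated sample below every LPS sample. Phosphofructokinase itself had 0.71 for the muscle form Pfkm, without overlap (adjusted p = 0.154), and 0.32 for the platelet form Pfkp.

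The later steps of the pathway showed no common direction. Aldoa, the main aldolase, had a log2 difference of 0.56 with treated samples above every LPS sample (adjusted p = 0.258), and its paralogue Aldoc had -0.10. Eno2, the neuronal form of enolase, gave 85248, 58599 and 46548 in the LPS samples and 36152, 33096 and 36014 after 15-HETE. All treated samples were lower, and the log2 difference was -0.81 (standard error 0.26, adjusted p = 0.168 with limma and 0.0330 with the intensity trend). The latter call was lost without LPS replicate 2 or any 1 of the treated samples (adjusted p up to 0.120). Tpi1, triose phosphate isomerase, had -1.40 (adjusted p = 0.160), but at a probe of 190 to 1267 units that was dimmer than most on the array. Whether so dim a probe reports this transcript was not tested.

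Gapdh, often used as a reference gene, gave 2103658, 2162683 and 1956016 in the LPS samples and 1749060, 2103658 and 2031707 in the treated samples. The groups overlapped, with a log2 difference of -0.08 (95% interval -0.51 to 0.34). Pgam1, the mutase, had -0.24 (-0.80 to 0.32), or -0.04 without LPS replicate 1. Pgk1, which makes the first ATP of the pathway, gave 1280013, 669477 and 624397 in the LPS samples and 722282, 800536 and 767833 in the treated samples. LPS replicate 1 was above all treated samples and the other LPS samples were below them, so that the log2 difference was -0.09 with all samples and 0.24 without LPS replicate 1.

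**Figure D3:**
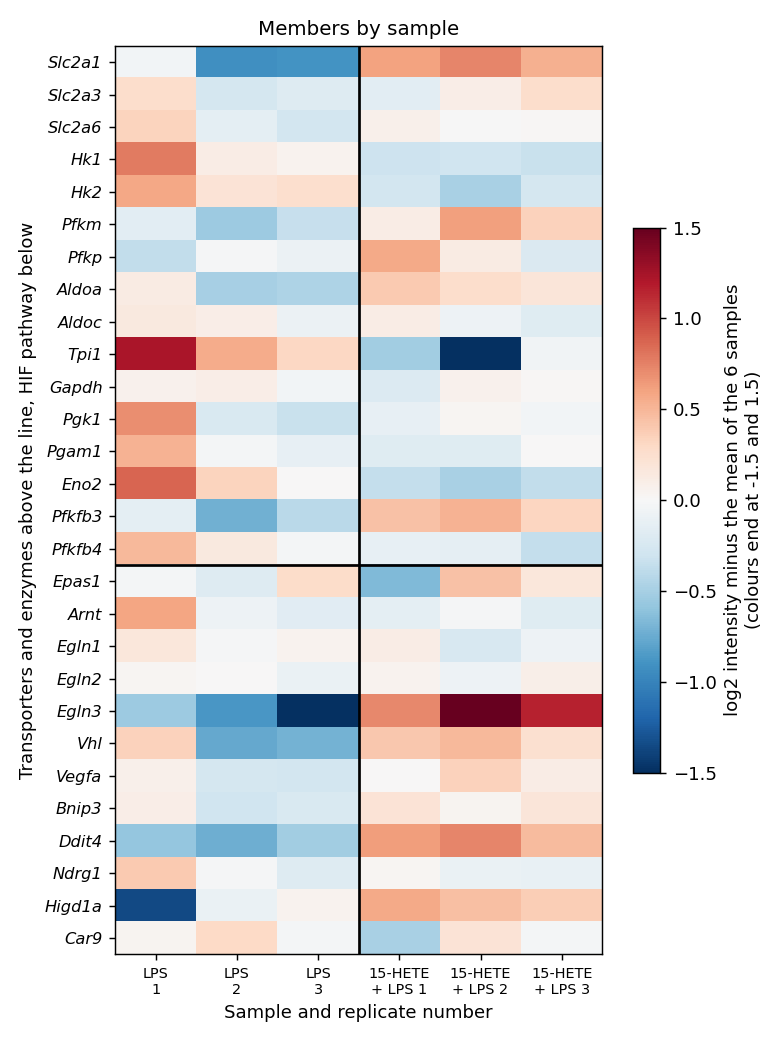
Log2 intensity of the 28 members in each of the 6 samples, after subtracting the mean of the 6 samples for each gene (red above, blue below); transporters and enzymes stand above the horizontal line and HIF-pathway genes below. LPS replicate 1 is the highest LPS sample for 14 of 16 transporters and enzymes, and the rows of Egln3, Ddit4 and Slc2a1 turn from blue or pale to red between the groups.

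Enzymes and HIF-pathway genes were then set side by side. The 16 transporters and enzymes had a median log2 difference of -0.09, with 7 above and 9 below 0, and treated samples lay wholly above the LPS samples for 4 and wholly below for 5. The 12 HIF-pathway genes had a median of 0.16, with 7 above and 5 below, and treated samples lay wholly above for 3 and wholly below for 0. Over all genes, treated samples lay wholly above for 17.5% and wholly below for 17.7%. Limma called 0 of the 16, as did the robust prior, while 3 on the higher and 4 on the lower side had an unadjusted p below 0.05, beside the 10.7% and 10.6% of all genes. Limma called 1 of the 12, Ddit4, and the robust prior 0. Under the intensity trend the calls were 2 higher and 2 lower on the enzyme side, and 2 higher and 0 lower on the HIF side. Of all genes this fit called 5.85% higher and 5.33% lower, and its share among genes of like brightness was not counted. After centring each gene on its mean, the median of the 12 HIF-pathway genes was 0.06, -0.14 and -0.18 in the LPS samples and 0.08, 0.27 and 0.14 in the treated samples. The highest LPS value (0.057, replicate 1) lay close to the lowest treated value (0.082, replicate 1). For the 16 transporters and enzymes the centred median was 0.30, -0.03 and -0.11 against -0.12, 0.01 and -0.02, with LPS replicate 1 the highest of all samples. Neither these medians nor the difference between the sides was tested, as the genes were chosen by name with earlier results known. The HIF-side median of 0.16 became 0.04 when probes below the median brightness, among them that of Egln3, were left out.

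LPS replicate 1 bore on this comparison. It was the highest LPS sample for 22 of the 28 members (78.6%), beside 47.3% of all genes and 57.8% of genes above the third quartile of brightness, where 18 of the members lay. Its intensity was a median of 1.43 times the mean of the other LPS samples over the transporters and enzymes, 1.19 times over the HIF-pathway genes and 1.06 times over all genes. Without it the median log2 difference was 0.09 for transporters and enzymes, so that its sign turned, and 0.24 for HIF-pathway genes. The intensity trend then called 11 of the 28 members higher and 3 lower, where 12.6% of all genes were called higher and 9.17% lower. The higher ones were Slc2a1, Slc2a6, Aldoa, Pgk1 and Pfkfb3 on the enzyme side and Egln3, Vhl, Vegfa, Bnip3, Ddit4 and Higd1a on the HIF side. The lower ones were Hk1, Hk2 and Eno2, all enzymes. Of the 28 members 26 lay above the median brightness of the array. The share called among genes of like brightness was not counted. Leaving out this sample was chosen after its values were seen, and the spread of the LPS group then rests on 2 samples. Why this sample differs was not tested.

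**Figure D4:**
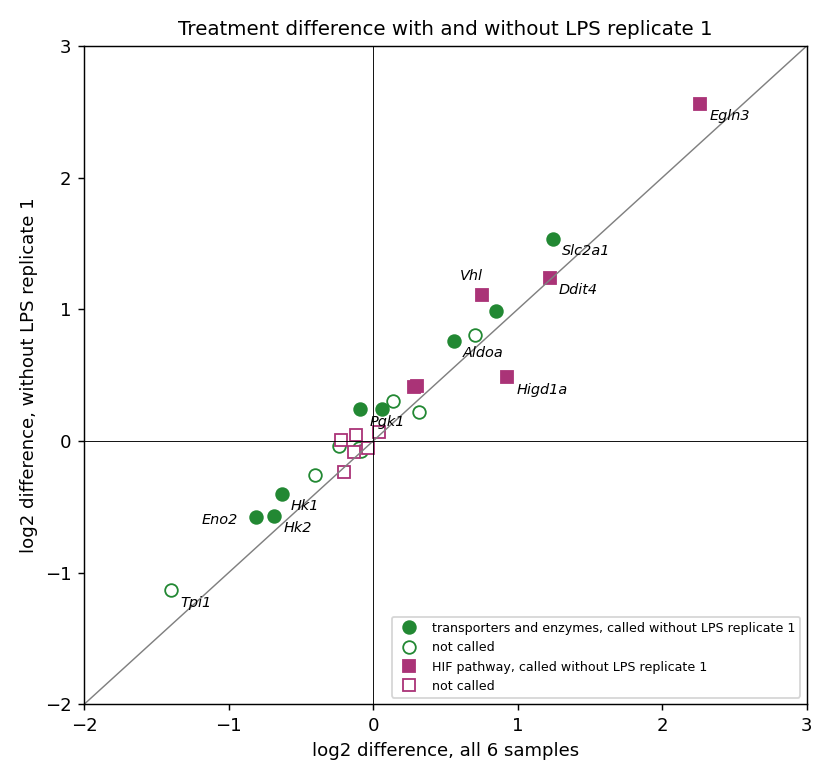
Log2 difference (15-HETE + LPS minus LPS) of each member with all 6 samples (horizontal axis) and without LPS replicate 1 (vertical axis); circles are transporters and enzymes, squares HIF-pathway genes, filled where called with the intensity trend without that sample. 24 of the 28 members lie above the line of equality, Pgk1 passes from below 0 to above it, and Higd1a lies below the line, at 0.93 and 0.48.

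A wider list of the same pathways, also chosen with earlier results known, held 53 measured genes. Limma called 2 of them higher and 1 lower, where 0.759% and 0.368% of all genes were called. The intensity trend called 8 higher and 6 lower, where 5.85% and 5.33% of all genes were called. Gbe1, the glycogen branching enzyme, gave 1777, 2259 and 2628 in the LPS samples and 7419, 8331 and 7569 in the treated samples. Every treated sample was above every LPS sample, and Gbe1 rose by a log2 difference of 1.82 (standard error 0.21, adjusted p = 0.0365). The lactate carriers were the other calls, in opposite directions. Slc16a1 had 2796, 1850 and 2322 in the LPS samples and 9969, 9676 and 9813 after 15-HETE, and rose by a log2 difference of 2.10 (adjusted p = 0.0327). Slc16a3 had 94187, 78495 and 88118 against 37328, 34919 and 36387, a log2 difference of -1.26 (adjusted p = 0.0474). With the robust prior the list had 2 calls higher and 0 lower, so that Slc16a3 was not called. Neither carrier's groups overlapped. Pklr, the pyruvate kinase of liver and red cells, had -1.42 (adjusted p = 0.0612, or 0.00319 with the intensity trend). By group, the 21 other HIF targets of this list split evenly by sign, with 10 above and 11 below 0 and a median of -0.00278. Treated samples lay wholly above the LPS samples for 9 and wholly below for 5, where 17.5% and 17.7% of all genes did so. Before adjustment limma gave a p under 0.05 to 7 on the higher and 3 on the lower side, beside 10.7% and 10.6% of all genes. The intensity trend called 5 of the 21 higher and 2 lower, beside the 5.85% and 5.33% of all genes. Of 6 further isoenzymes of glycolysis 1 was higher and 1 lower with it, of 4 genes of the pentose phosphate pathway 1 was higher and 0 lower, and of 8 other HIF subunits and regulators 0 were higher and 1 lower.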

How the data were processed

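Total RNA of RAW 264.7 cells was labelled with digoxigenin and hybridised to AB1700 mouse genome survey arrays, 1 per sample. The deposited values are linear intensities that the authors read with the AB1700 Expression Array System Software 1.1.1 and quantile normalised. Their later filter on signal-to-noise and flags is not in the table and could not be repeated, and background correction is not stated. Quantile normalisation gives every sample 1 distribution, so a shift of all genes would not be seen.

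Values were turned to log2. Of 33012 probes 14411 had 1 gene symbol in the platform annotation, 247 several and 18354 none. Groups were compared with limma 3.58.1 in R 4.3.3 (lmFit, eBayes, two-sided), adjusted by Benjamini-Hochberg over all probes. The fit was run on simulated data with independent noise and changes of known size. No sample there stood apart as LPS replicate 1 does, so this check says nothing of the calls here. Members and gene lists were chosen with earlier results of these data known. Every measured member is named, with all samples printed for those with an unadjusted p under 0.01 or called with the intensity trend, and for Slc2a1, Hk2, Pfkfb3, Gapdh and Vegfa (the rule also held Hif1a and Pkm, which had no probe). The sample values of Vhl, Higd1a and Pgk1 were added after they were seen. From the wider list the 4 genes with the lowest p are named. Promoters came from RefSeq tables of GRCm38.p6. The number of arrays limits the precision. Alternatives were an intensity trend, a robust prior (statmod 1.5.0), the t-test of the methods, cyclic loess, an offset of 100, a filter on dim probes, averaged probes, a block on replicate number, and each sample left out in turn.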

Additional observations from a re-analysis of the deposited data

How the results depend on the processing

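The whole array gave 314 calls with limma, 2917 with the intensity trend, 162 with a robust prior, 703 with an offset of 100 before log2, 2796 among probes above the median only, 0 and 88 with the methods' t-test adjusted over all probes and over those past the fold rule, and 0 with the replicate block. Cyclic loess called 199 probes higher and 117 lower, against 168 and 146 in the main test. Limma made 0 calls with any 1 sample left out, so calls lost there tell nothing of single genes, and the intensity trend made 1399, 1223 and 1562 without treated replicates 1, 2 and 3 and 5135, 1485 and 1525 without LPS replicates 1, 2 and 3. Member calls were 1 in the main test, 6 with the intensity trend, 0 with a robust prior, the t-test over all probes, averaged probes or the replicate block, 2 with the offset and 5 among the brighter probes. Cyclic loess and the t-test over probes past the fold rule each called 1 member. With the intensity trend and 1 sample left out they ran from 2 to 14, the most without LPS replicate 1. For transporters and enzymes the calls were 0 in the main test, 4 with the intensity trend and 4 among the brighter probes, and 1 to 8 with a sample left out under the trend. For HIF-pathway genes they were 1, then 2 with the intensity trend and with the offset, 0 with the robust prior, the t-test over all probes, averaged probes and the replicate block, and 1 to 6 with a sample left out under the trend. Cyclic loess, the t-test over probes past the fold rule and the brighter probes each gave 1 call on this side. For Ddit4 the adjusted p was 0.0863 with the t-test over all probes and 0.207 with the replicate block. Over probes past the fold rule the t-test gave this gene 0.0224. The wider list had 3 calls (2 higher, 1 lower), 2 with the robust prior (2 higher, 0 lower), 14 with the intensity trend, 13 among the brighter probes, 0 with either t-test and the replicate block, and under the trend 8, 6 and 9 without treated replicates 1, 2 and 3 and 21, 9 and 7 without LPS replicates 1, 2 and 3. Leaving out a sample with the default prior gave 0 calls in each list. The median of the enzyme side ran from -0.148 to 0.0880 over samples left out (the latter without LPS replicate 1) and that of the HIF side from 0.132 to 0.269, being 0.0431 among brighter probes. Of the members, 8 were followed through each alternative (Ddit4, Egln3, Slc2a1, Pfkfb3, Hk2, Eno2, Vegfa and Gapdh), and 0 of them changed sign, Egln3 being too dim for the fit on brighter probes. Without LPS replicate 1, Pgk1, Arnt and Ndrg1 changed sign. Same-numbered samples of the groups correlated at -0.024, 0.003 and 0.024 in their deviations, and differently numbered ones at -0.054 to 0.046. The labels give same-numbered samples only a number in common. Whether they were handled together cannot be read from these values. Fits with the trend and a sample left out were added after seeing the data. The number of arrays, dim probes such as those of Egln3 and Tpi1, and missing detection flags limit what can be read here.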
